A study of Mus musculus with 8 samples.

Results

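The Id and Hes/Hey genes encode repressors of the helix-loop-helix class, and 8 of them (Id1, Id2, Id3, Id4, Hes1, Hes5, Hes6 and Hey1) were examined here for acetylation of histone H3 at lysine 9 (H3K9ac) in the mouse cerebellum. H3K9ac marks active promoters and was profiled by chromatin immunoprecipitation and sequencing, so each value below is a peak, its length or its rank in the list of one library. The members were listed by gene family among 21887 protein-coding genes, and Id4 was in addition chosen by its uneven detection between the genotypes in these same lists. Its detection is therefore given as a description with no test. A peak counted for a gene if it overlapped the gene or lay within 5 kb of either of its ends on the mm10 build.

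The study holds 4 libraries of heterozygous knock-in mice (KI) carrying a 266Q allele of Atxn7, the gene of spinocerebellar ataxia type 7, and 4 libraries from wild type mice (WT). All were C57BL/6 animals aged 9 weeks, the KI mice are described as symptomatic and the WT mice as their littermates, and the tissue was whole cerebellum. Because whole tissue was used, fewer cells of a type and less acetylation per cell cannot be told apart. The labels do not say whether replicates are separate animals, so the p-values measure the spread between libraries, which may be technical.

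Id proteins carry a helix-loop-helix domain without the basic region that contacts DNA. They pair with E proteins and keep them from activating neuronal genes, and they are targets of bone morphogenetic protein (BMP) signalling. Hes and Hey proteins bind DNA, recruit Groucho corepressors and carry out much of the Notch response, which keeps progenitors and glia from turning into neurons. In the cerebellum these genes are best known from the granule cell precursors of the developing cortex and from Bergmann glia, the radial astrocytes that surround Purkinje cells.

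The lists fell into long lists of broad peaks in replicates 1 and 2 and short lists of narrow peaks in replicates 3 and 4, in both genotypes. The number of peaks was 10607, 11268, 5571 and 1266 in KI replicates 1 to 4 and 11409, 7735, 3249 and 1571 in WT replicates 1 to 4. The median width was 1144 to 1246 bp in KI replicates 1 and 2 and 132 to 148 bp in KI replicates 3 and 4, against 1065 to 1118 bp and 134 to 147 bp in WT. The lists give no read counts, so depth is unknown and values within replicates 1 and 2 stand beside the pooled ones. A peak was listed at 10, 10, 9 and 1 of the 10 markers of granule cells in KI replicates 1 to 4, and 10, 10, 3 and 3 in WT replicates 1 to 4. Of these markers 6 were in more KI and 2 in more WT libraries, against 45.3% and 14.9% of all genes with a peak. Over all genes the share with a peak was 46.9% and 44.9% in KI replicates 1 and 2, and 41.5% and 34.9% in WT. Of 9 Purkinje cell markers 4 and 5 had one in KI replicates 1 and 2, against 3 and 4 in WT. Pcp2, Car8, Ppp1r17 and Pcp4 of that list had none in any library.

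Promoter sequences are shown for 4 members that differ in where the mark lay: over the start site in the long lists of both genotypes (Hes5), over an internal start site in 3 of these lists (Hes6), over the start site in a single library (Id4), and nowhere near it (Id3). RefSeq promoters on GRCm38.p6, the assembly named mm10, matched 5 of the 8 members. Each line gives the 250 bases before the start site, 5′ to 3′ on the strand of the gene. Capitals mark TGGGAA or its complement, the core bound by the Notch pathway factor RBPJ, and GGCGCC, a GC-rich element bound by BMP-activated SMAD proteins. The positions are chr4:154960673-154960922 (plus strand) for Hes5, chr1:91413223-91413472 (minus strand) for the internal start of Hes6, chr13:48260866-48261115 (plus strand) for Id4 and chr4:136143572-136143821 (plus strand) for Id3.
Hes5: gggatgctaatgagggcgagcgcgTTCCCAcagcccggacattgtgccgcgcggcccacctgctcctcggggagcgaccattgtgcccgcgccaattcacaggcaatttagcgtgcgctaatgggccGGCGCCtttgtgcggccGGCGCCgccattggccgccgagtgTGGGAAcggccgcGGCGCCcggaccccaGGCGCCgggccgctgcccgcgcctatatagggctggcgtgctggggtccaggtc
Hes6: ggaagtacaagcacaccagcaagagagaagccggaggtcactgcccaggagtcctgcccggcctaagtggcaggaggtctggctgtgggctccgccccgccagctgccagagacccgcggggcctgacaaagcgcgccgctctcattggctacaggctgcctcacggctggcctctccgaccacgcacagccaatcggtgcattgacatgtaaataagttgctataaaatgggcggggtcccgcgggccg
Id4: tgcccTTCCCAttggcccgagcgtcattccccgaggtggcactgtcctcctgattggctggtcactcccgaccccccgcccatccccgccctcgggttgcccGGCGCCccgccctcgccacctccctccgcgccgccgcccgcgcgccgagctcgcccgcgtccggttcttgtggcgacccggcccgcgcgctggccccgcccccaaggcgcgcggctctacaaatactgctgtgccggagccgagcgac
Id3: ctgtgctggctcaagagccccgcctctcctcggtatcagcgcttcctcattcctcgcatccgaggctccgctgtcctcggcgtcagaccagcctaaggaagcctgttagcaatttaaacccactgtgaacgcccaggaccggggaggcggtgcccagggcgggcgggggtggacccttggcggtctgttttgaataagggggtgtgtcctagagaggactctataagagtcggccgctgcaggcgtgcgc

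The Hes5 promoter held the RBPJ core at 2 positions and GGCGCC at 4. The Id4 promoter held each of them once. The other printed promoters held neither. In all 32851 RefSeq mouse promoters of the same length, on either strand, 21.6% held TGGGAA and 9.59% held GGCGCC. The general E-box CANNTG, which E proteins bind and which is present in 66.2% of promoters, was found once in Hes5 and once in the printed Hes6 promoter, and in neither the Id4 nor the Id3 window. The N-box CACNAG, bound by Hes proteins and present in 36.7% of promoters, was found once in Id4 and once in the printed Hes6 promoter. The cyclic AMP element TGACGTCA, present in 1.55% of promoters, was in none of the 4 windows. Matches of different motifs overlapped at 0 places in these windows, and a match is a string of letters and not evidence of binding. The C and G content was 71.6% for Hes5, 64.0% for the printed Hes6 promoter, 75.6% for Id4 and 62.8% for Id3, against a median of 52.4% over all promoters.

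Every member carried H3K9ac within its window in replicate 1 of both genotypes. The number of members with a peak was 8, 6, 2 and 0 of 8 in KI replicates 1 to 4, and 8, 7, 2 and 0 of 8 in WT replicates 1 to 4. The difference in replicate 2 is Id4, which was chosen for its uneven detection and also had a peak in WT replicate 3. Over all genes the share with a peak was 46.9%, 44.9%, 16.6% and 2.78% in KI replicates 1 to 4, and 41.5%, 34.9%, 9.72% and 3.83% in WT. The members are short genes of 1160 to 4913 bp, against a median of 17169 bp over all genes, so their windows are not longer than those of most genes. The 8 windows held 44 peaks in all, 39 in replicates 1 and 2, 5 in replicate 3 and 0 in replicate 4. The peaks merged into 13 regions, of which 6 touched the member gene and 7 lay in its flanks.

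**Figure D1:**
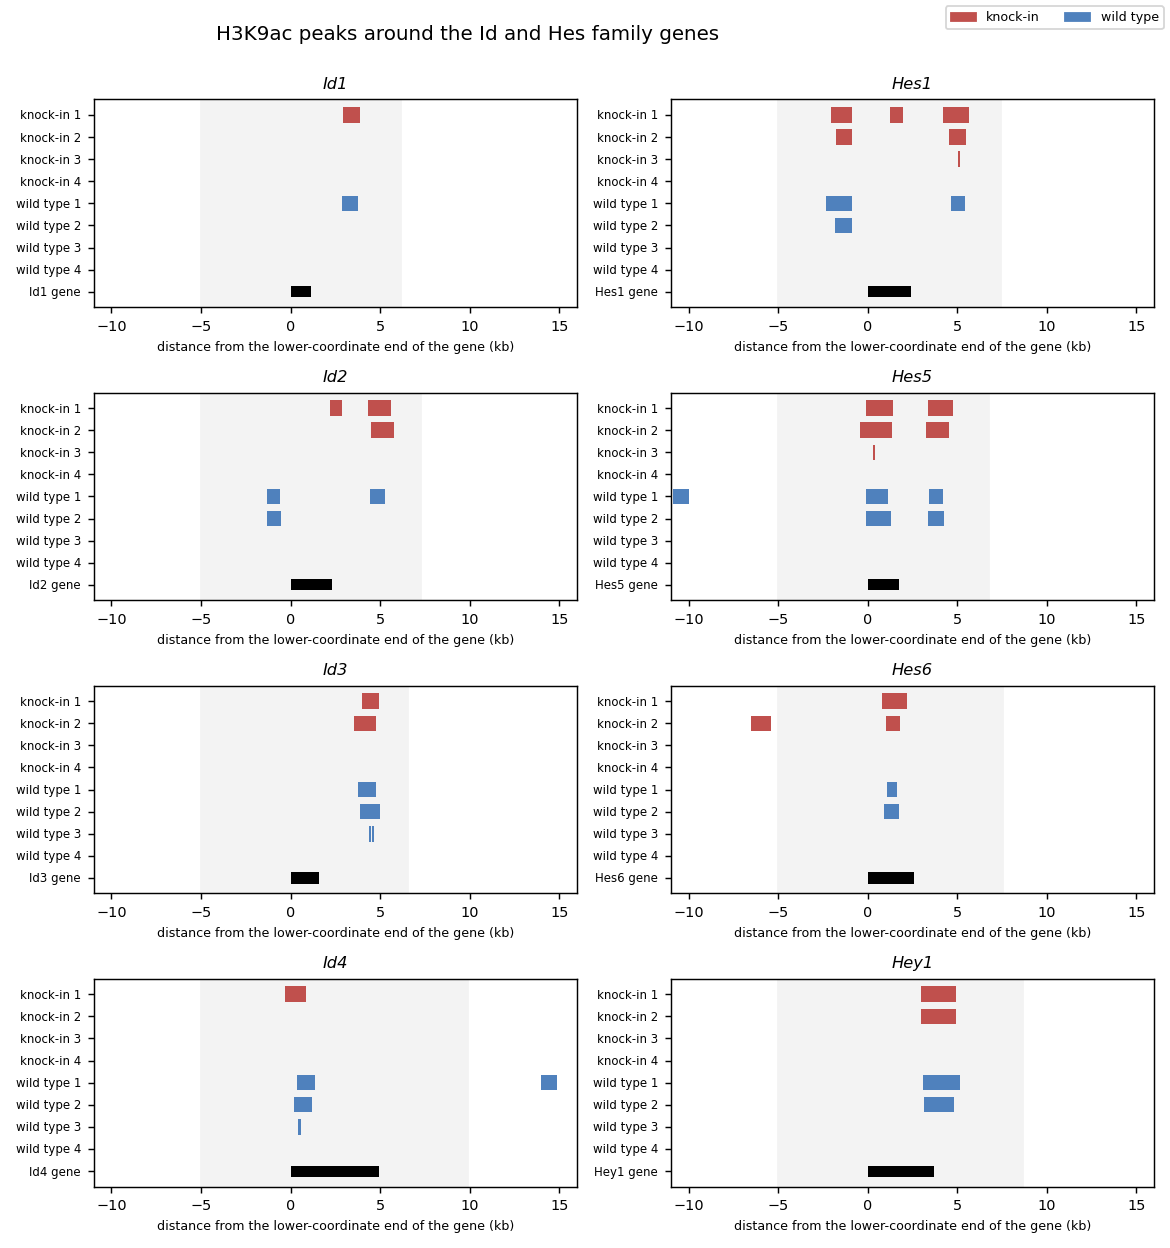
Positions of H3K9ac peaks around each of the 8 genes. The x axis is the distance in kb from the end of the gene with the lower coordinate, each row is a library with KI above WT, black bars are the genes and grey shading is the gene with 5 kb on each side. Hes5 and Hey1 have peaks over a gene end in 4 libraries, while the peaks of Id1 and Id3 lie beyond the gene.

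**Figure D2:**
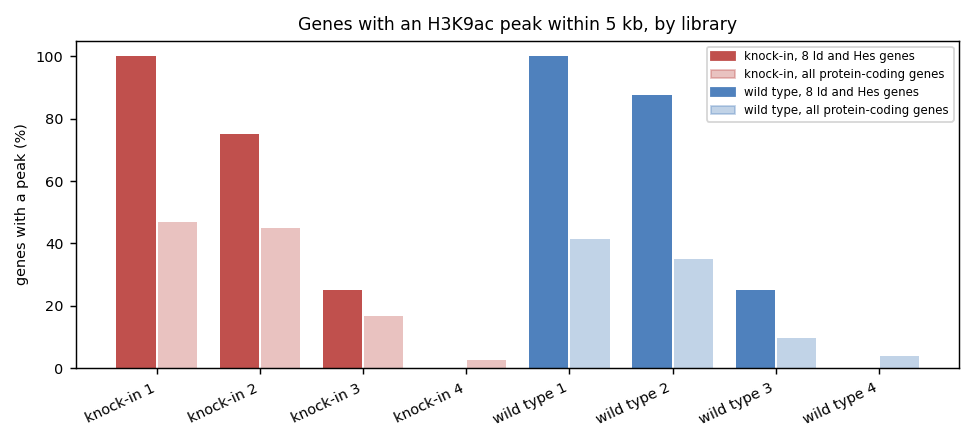
Percentage of genes with a peak within 5 kb in each library. Full bars are the 8 Id and Hes genes and pale bars all 21887 protein-coding genes, with KI libraries left of WT libraries. The 8 genes stand at 100% in replicate 1 of both genotypes and at 0% in replicate 4 of both.

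Between genotypes the number of libraries with a peak differed by at most 2 for any member. Hes1 and Hes5 had a peak in 1 more KI library than WT libraries, Id3 and Id4 in fewer, and Id1, Id2, Hes6 and Hey1 in equally many. Thus 2 of 8 members were in more KI libraries, 2 in more WT libraries and 4 in equally many, with a median difference of 0 libraries. Without Id4, which was chosen for its detection, they were 2, 1 and 4 of 7. Of 12329 genes with any peak, 45.3% were in more KI libraries, 14.9% in more WT libraries and 39.8% in equally many, also with a median difference of 0. Within replicates 1 and 2, 6 of 8 members had a peak in all 4 libraries, 0 were in more KI and 1 was in more WT libraries, and this 1 is Id4. Of the 11955 genes with a peak there, 54.3% had one in all 4, 30.7% were in more KI and 8.29% in more WT libraries.

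No gene passed a test of different detection between the genotypes. A conditional exact test, which allows each library its own odds of detection, called 0 of 12244 genes (0%) after Benjamini-Hochberg adjustment, with 157 at an unadjusted p under 0.05. The smallest of these p-values was 0.000273, in 2 genes with a peak in 4 KI and 0 WT libraries. At that p a gene cannot pass the adjustment alone, and a call would have needed many such genes. The count of 0 therefore does not show that detection was equal. Fisher's exact test gave 0 calls and 2 genes at an unadjusted p under 0.05, but its p cannot fall below 0.0286, so a call would have needed 6997 genes at that value. For the 7 members other than Id4 the conditional exact p was 0.301 for Id3 and 1 for the rest, and each adjusted p was 1. The length covered by peaks in the window gave 0 called of 12329 genes (0%) by a two-sided exact permutation test. There 2 genes had an unadjusted p under 0.05, and with 4 libraries against 4 that p cannot fall below 0.0286, so a call would have needed 7046 genes at that value. For each of the 7 members other than Id4, the sign of the difference in covered length turned when 1 library was left out. Leaving out 1 library gives the genotypes unequal shares of long and short lists. That shifts a mean by itself, so these turns do not measure stability.

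Id1 carried its only mark beyond the gene. Id1 opposes differentiation and is a standard target of BMP signals (chr2:152736251-152737410). A peak of 919 bp in KI replicate 1 and one of 847 bp in WT replicate 1 lay 1778 and 1737 bp above its higher-coordinate end, and the other 6 libraries had none. By score these peaks stood at percentile 47.2 of the KI list and at percentile 26.2 of the WT list. The score is the value the authors' peak caller gave each peak, and it is used here only to rank peaks within a list. No protein-coding or other annotated gene had an end within 1 kb of that region.

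Id2, which in addition to its role in neural precursors is expressed in mature neurons, had its peaks in 3 separate regions (chr12:25093799-25096092, minus strand). The region over its start site was listed in KI replicate 1 alone, 680 bp wide and at percentile 8.12. A region starting 517 bp beyond the 3′ end was listed in WT replicates 1 and 2, at percentiles 22.4 and 3.87, and in no KI library. A region upstream of the start was found in KI replicates 1 and 2 and in WT replicate 1. Its peaks began 2052 and 2222 bp from the start site in KI and 2161 bp in WT. All of the Id2 peaks but one ranked below the middle of their list, the exception being the upstream peak of KI replicate 2 at percentile 50.7. The covered length was 1955, 1266, 0 and 0 bp in KI replicates 1 to 4, and 1569, 824, 0 and 0 bp in WT. The means were 805 ± 971 bp in KI and 598 ± 755 bp in WT (SD, n = 4 each, exact permutation p = 0.829).

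Id3 had a single region downstream of the gene, found in more libraries than the region of any other Id gene. Id3 acts with Id1 in neural progenitors and in blood vessels (chr4:136143822-136145392, plus strand). Its peaks began 2432 and 1961 bp past the 3′ end in KI replicates 1 and 2, and 2180 and 2284 bp past it in WT replicates 1 and 2. WT replicate 3 had 2 narrow peaks there, of 158 and 106 bp, and KI replicate 3 had none. Covered length was 907, 1246, 0 and 0 bp in KI and 1030, 1119, 264 and 0 bp in WT. The long lists of the genotypes overlapped in this length, with means of 1076.5 bp in KI and 1074.5 bp in WT replicates 1 and 2. Over all 4 libraries the means were 538 ± 637 bp in KI and 603 ± 556 bp in WT (SD, n = 4 each, exact permutation p = 0.829). The start site printed above lay in no peak of any library.

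Id4, which controls the timing of oligodendrocyte and astrocyte formation, had a peak in 1 KI and 3 WT libraries (chr13:48261116-48266028, plus strand). This difference is what the gene was chosen for, and among peaks with a score of at least 100 it turned, to 1 KI and 0 WT libraries. In KI replicate 1 the peak ran from -296 to 873 bp relative to the start site, was 1170 bp wide and stood at percentile 60.6. In WT the peaks of replicates 1, 2 and 3 began 383, 199 and 401 bp past the start site, and were 959, 976 and 176 bp wide. They stood at percentiles 38.7, 45.8 and 24.1. So the peak of the KI library covered the start site and all of the printed promoter, and those of the WT libraries lay inside the gene. KI replicate 2, with 11268 peaks, had none within 10 kb of Id4. The region also lay over the long non-coding gene A330033J07Rik, which ends at 48262623 on the same chromosome and overlaps the first part of Id4. The covered length was 1170, 0, 0 and 0 bp in KI and 959, 976, 176 and 0 bp in WT.

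Of 12329 genes with a peak, 7 others shared the detection pattern of Id4 over the 8 libraries. Closest in score rank were Copg2, a coat protein subunit of transport vesicles, and its neighbour Tsga13, which is named for its expression in testis. Their mean absolute difference from Id4 was 18.7 percentile points over the 4 libraries with a peak, and they had the same values in each, since their windows hold the same peak. Ptpn13, a protein tyrosine phosphatase, differed by 18.7 points as well, with percentile 38.5 in KI replicate 1 and percentiles 49.3, 62.9 and 49.2 in WT replicates 1 to 3.

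Smaller shares of the markers of other cell types than of granule cells had a peak in replicates 1 and 2. Of 8 astrocyte and Bergmann glia markers, 2, 2, 2 and 1 had a peak in KI replicates 1 to 4, and 1, 1, 0 and 0 in WT. Gfap, Aqp4, Sox9 and S100b had none in any library, and the 4 markers with a peak were each in more KI than WT libraries, as 45.3% of all genes with a peak were. Of 7 oligodendrocyte markers 1, 2, 0 and 0 had one in KI and 1, 0, 0 and 0 in WT. Of 7 microglia markers 1 had a peak, in KI replicate 2, and of 7 vascular markers 0, 1, 1 and 1 had one in KI and 2, 0, 0 and 0 in WT. Among 8 genes of other tissues 1, 2, 0 and 0 had a peak in KI and 1, 1, 0 and 0 in WT. The part of these cells in the values of the Id and Hes genes was not tested.

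Hes1 was marked on both sides of the gene and hardly over it. Hes1 is the Notch effector that keeps neural progenitors from differentiating (chr16:30065357-30067796). On the side of the lower coordinate, all 4 libraries of replicates 1 and 2 had a peak whose nearer edge lay 903 and 869 bp from the gene in KI and 881 and 910 bp in WT. On the other side, a region over the non-coding gene Gm32998 had peaks in KI replicates 1, 2 and 3 and in WT replicate 1. Those peaks were 1447, 962 and 152 bp wide in KI and 773 bp in WT, at percentiles 65.6, 27.8 and 20.8 in KI and 14.7 in WT. A peak inside Hes1, 756 bp wide, was listed in KI replicate 1 alone. Neither end of the gene lay in a peak in any library. Among peaks with a score of at least 100, Hes1 was in 1 KI and 2 WT libraries.

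Covered length at Hes1 was 3339, 1896, 152 and 0 bp in KI replicates 1 to 4, and 2224, 943, 0 and 0 bp in WT replicates 1 to 4. KI was longer than the WT library of the same number in 3 pairs, and the groups overlapped. The means were 1347 ± 1582 bp in KI and 792 ± 1053 bp in WT (SD, n = 4 each, exact permutation p = 0.629). Within replicates 1 and 2 they were 2618 bp in KI and 1584 bp in WT. With labels exchanged only within replicate numbers, the exact permutation p was 0.25, the smallest that 3 differing pairs allow. Without KI replicate 1, which takes a long list from KI alone, the sign of the difference turned, to -109 bp.

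Among the 5 members with a RefSeq promoter, Hes5 alone had its start site in a peak in all 4 long lists. Over all genes with such a promoter and a peak in the window, 79.5% and 75.8% had a start site in a peak in KI replicates 1 and 2. In WT replicates 1 and 2 the shares were 71.6% and 71.3%. Hes5 is the Notch effector of radial glia and Bergmann glia (chr4:154960626-154962372, plus strand). A broad peak over its start site and first part was present in replicates 1 and 2 of both genotypes, and it covered all 250 bases of the promoter printed above, with its 2 RBPJ core matches, in each of these 4 libraries. The peak was 1487 and 1795 bp wide in KI and 1223 and 1401 bp in WT. It stood at percentiles 74.1 and 76.1 in KI and at 82.0 and 71.9 in WT. KI replicate 3 had a narrow peak of 113 bp there, beginning 10 bp past the start site, and WT replicates 3 and 4 had none.

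A second Hes5 region lay 1486 bp or more above the gene and overlapped the end of the neighbouring gene Pank4 and the non-coding gene Gm42363, so it cannot be assigned to Hes5. It was 1398 and 1299 bp wide in KI replicates 1 and 2 and 756 and 856 bp in WT replicates 1 and 2. Its percentiles were 41.5 and 60.0 in KI and 5.64 and 34.8 in WT. Both KI peaks were wider than both WT peaks, and for a test of 2 libraries against 2 the smallest possible p is 0.333 (exact permutation test). Over both regions and all libraries the covered length was 2885, 3094, 113 and 0 bp in KI and 1979, 2257, 0 and 0 bp in WT, with means of 1523 ± 1696 bp in KI and 1059 ± 1228 bp in WT (SD, n = 4 each, exact permutation p = 0.571). KI was longer in the 3 pairs of the same number that had a peak, and with labels exchanged only within pairs the exact permutation p was 0.25, the smallest that 3 such pairs allow. The difference was -59.7 bp without KI replicate 2, which takes a long list from KI alone.

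Hes6, which counters Hes1 and favours neuronal differentiation, was marked inside the gene (chr1:91411483-91414038, minus strand). RefSeq gives it an outer start site at 91414038 and an internal one at 91413222. The outer site lay in no peak. The internal site lay in the peaks of KI replicates 1 and 2 and of WT replicate 2, and the peak of WT replicate 1 ended 111 bp short of it. Of the 250 bases printed for it, 250 and 81 were covered in KI replicates 1 and 2, and 0 and 12 in WT replicates 1 and 2. The peaks were weak, at percentiles 30.9 and 22.5 in KI and 8.65 and 17.6 in WT. Covered length was 1386, 822, 0 and 0 bp in KI and 558, 831, 0 and 0 bp in WT (exact permutation p = 0.829). The groups overlapped, since KI replicate 2 was shorter than WT replicate 2.

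Hey1, a Notch target of endothelium and of neural progenitors, carried a broad peak over its higher-coordinate end in replicates 1 and 2 of both genotypes (chr3:8663359-8667038). The peak was 1932 and 1930 bp wide in KI and 2060 and 1666 bp in WT, between 1.55 and 1.84 times the median width of its list. It was the widest peak of the members. Its percentiles were 78.9 and 78.2 in KI and 67.8 and 58.8 in WT. The ranks of both KI libraries were above those of both WT libraries, while the widths overlapped. Lists of different length were ranked, so a change in acetylation cannot be read from the percentiles. The predicted protein-coding gene LOC115489673 begins under the same peak, at 8666924. Covered length averaged 966 ± 1115 bp in KI and 932 ± 1088 bp in WT (SD, n = 4 each, exact permutation p = 1).

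**Figure D3:**
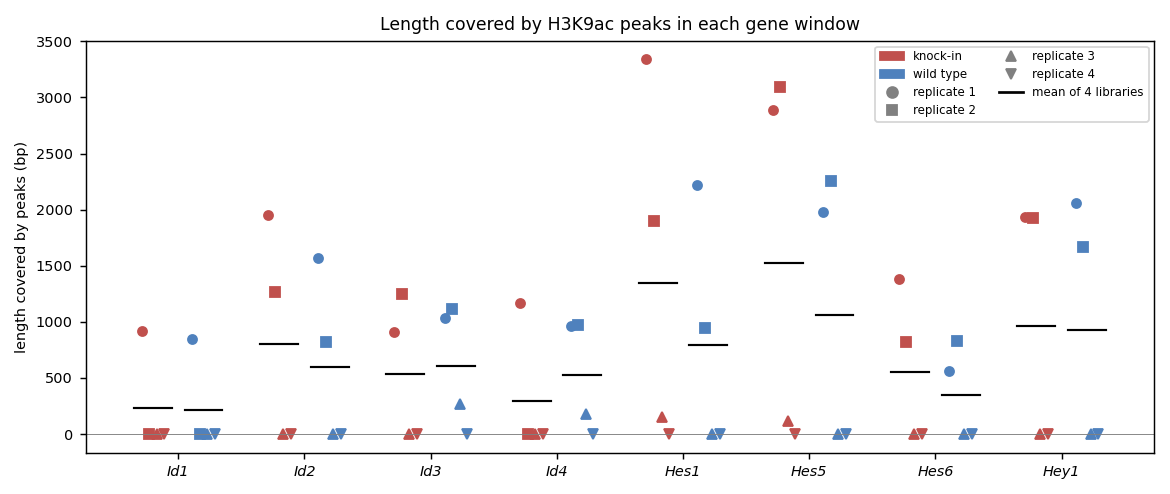
Length in bp covered by H3K9ac peaks in the window of each gene (the gene and 5 kb on each side). Points are libraries, with shapes for replicates 1 to 4 and KI left of WT, and lines are means of 4 libraries. In every gene the libraries of replicate 4 are at 0 bp and the genotypes overlap.

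**Figure D4:**
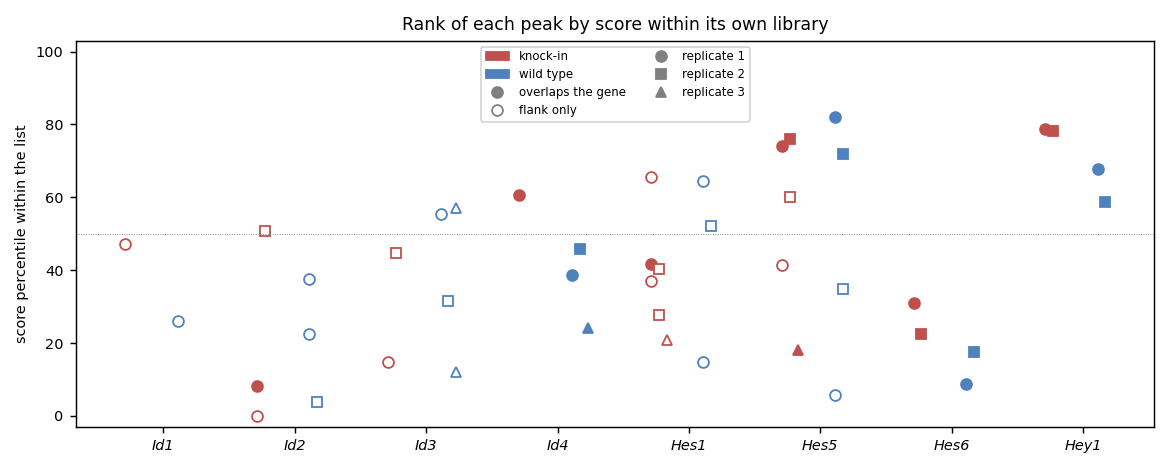
Rank of every peak by its score within its own list, as a percentile, for each gene. Filled points overlap the gene and open points lie in its flanks, with KI left of WT. In the long lists the start site peak of Hes5 lies between percentiles 71.9 and 82.0 and the peak of Hey1 between 58.8 and 78.9, and the peaks of Hes6 lie between 8.65 and 30.9.

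The peaks of the set lay over gene ends in some members and in the flanks of others. Of the members with a peak, 4 of 8 and 2 of 6 had a peak over an end in KI replicates 1 and 2, and 2 of 8 and 2 of 7 in WT replicates 1 and 2. Of all genes with a peak in the window, 68.3% and 65.1% had one over an end in KI replicates 1 and 2, and 60.5% and 57.6% in WT. The members whose peaks lay in the flanks alone were 2 and 3 in KI replicates 1 and 2, and 4 and 3 in WT, against 9.47% and 10.7% of all genes with a peak in KI and 11.7% and 11.9% in WT. These shares rest on 8 genes and were not tested. Flanks also make up more of the window in short genes such as these members. Among the 44 member peaks, 19 touched the gene, with a median percentile of 45.8, and 25 did not, with a median of 37.2. The farthest peak counted lay 2963 bp from its gene, at Id3 in WT replicate 3. The nearest one not counted lay 5431 bp from Hes6 in KI replicate 2, over the non-coding gene 1700020N18Rik. With a window of 10 kb, which takes in that peak, the difference in covered length of Hes6, KI minus WT, was 477.75 bp, against 204.75 bp with 5 kb.

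Among related genes, most members of the Notch list and most members of the BMP list had a peak. Over all genes 56.3% had a peak in some library, and of those 45.3% were in more KI and 14.9% in more WT libraries. None of the genes below was called, and each adjusted conditional exact p was 1 where a gene had a peak and so a test. Of 8 other genes of the Hes, Hey and related families, 6 had a peak. Hey2, a relative of Hey1, had one in 2 KI and 0 WT libraries (conditional exact p = 0.425). Of 6 Groucho corepressors, the partners of Hes proteins, all 6 had one. Tle4 was in 3 libraries of each genotype and Tle1 in 2 KI and 3 WT libraries. Of the 3 E proteins that Id proteins sequester, all had one, with Tcf3 in 4 KI and 3 WT libraries and Tcf4 in 3 of each.

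Notch pathway genes had a peak at 25 of 28 members, 5 of them in more KI, 5 in more WT and 15 in equally many libraries. Nrarp, a Notch-induced inhibitor of the pathway, was in 2 KI and 0 WT libraries (conditional exact p = 0.425). Notch1 itself, Jag1 and Lfng had no peak in any library. BMP pathway genes had one at 17 of 25, with 7 in more KI, 3 in more WT and 7 in equally many libraries. Smad6, an inhibitory SMAD, and Bambi, a decoy receptor, were each in 2 KI and 0 WT libraries (conditional exact p = 0.425). Of the 6 ligands Bmp6 had a peak, in 1 KI library, and Bmp2, Bmp4, Bmp5, Bmp7 and Gdf7 had none. Of 14 factors of the helix-loop-helix class, most of them proneural or neuronal factors that Id and Hes proteins hold back, 6 had a peak. The 14 also include Olig1 and Olig2 of the oligodendrocyte lineage, of which Olig1 had a peak, in 1 KI library. Neurod2 and Bhlhe22 were in 3 libraries of each genotype, and the other genes with a peak included Neurog2, in 1 WT library. Atoh1, Neurod6, Ptf1a and Neurog1 were among those with none. Windows of long genes such as Tcf4 hold more sequence than those of the short Id and Hes genes, so the shares of different lists are not on one scale.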

How the data were processed

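The deposited files are 8 peak lists, one a library, with no pooling of replicates. The score of each peak is the value the authors' peak caller gave it, per the file headers from MACS in Galaxy. The sources used here do not give its scale, the control or the caller's version. Reads were aligned with Bowtie2 to mm10, per the submitters' processing notes. The lists hold 52676 peaks with scores of 50 or more, and 15 peak starts below 0 were set to 0.

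Genes came from RefSeq on GRCm38.p6. A gene counted as detected in a library if at least 1 bp of a peak fell in the gene or within 5 kb of it. Detection was tested by a two-sided conditional exact test with detection odds estimated for each library (Python 3.11.15, scipy 1.17.1), adjusted by Benjamini-Hochberg over all genes at 0.05, and covered length by an exact permutation test of the 8 libraries, two-sided. The tests were checked on data simulated from the fitted detection odds and from normal values, which the real lists need not follow. All 8 members are named. Of each related list, up to 3 genes with a difference of at least 2 libraries are named, or else up to 2 found in the most libraries. Genes at 0, BMP ligands, Neurog2, Olig1 and Olig2 were chosen after their values were seen. The members and lists were chosen with earlier results of these data known.

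The labels number replicates 1 to 4 in both genotypes. Deviations from the genotype means correlated at 0.127, 0.215, 0.203 and 0.505 between the genotypes for replicates 1 to 4, over 12329 genes. Only libraries of the same number were compared, and these also share the type of list, long or short. Whether the numbers pair the libraries was therefore not tested. The replicate block assumes such pairs, and the main tests do not use them. Alternatives were other windows, a stricter score, an overlap rule, equal list lengths, Fisher's test, a replicate block and leaving out each library.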

Additional observations from a re-analysis of the deposited data

Results flagged for a closer look

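In 3 of the 16 sets of 4 libraries checked, one per gene and genotype, 1 library stood apart from the others in the length covered by peaks, by a gap above Dixon's critical value for 4 values. Id1 had 919 bp in KI replicate 1 and 847 bp in WT replicate 1, and the other libraries of each genotype were at 0. Id4 had 1170 bp in KI replicate 1 and 0 bp in the other KI libraries. For normal values chance gives such a gap in about 5% of sets, a rate that need not hold for these lengths. A set with 3 libraries at 0 meets the rule whenever the other has a peak, as in all 3 sets here. The flags are therefore a description and no test, and Id4 was chosen for this uneven detection.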

How the results depend on the processing

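The number of genes called between genotypes was 0 under all 20 alternatives, including Fisher's exact test and the replicate block. Fisher's p cannot fall below 0.0286, so its count of 0 says nothing about stability. With the replicate block 3 of 8124 genes had an unadjusted p under 0.05, and the block changed no call for a member. The block uses only replicate numbers at which the genotypes differ in detection. A call would have needed many genes at its smallest possible p, so its count of 0 says nothing about stability either. The other alternatives used the conditional exact test, which in the main setting also needs many genes at a small p for a call. Their counts of 0 are therefore not read as stability. Members in more KI libraries numbered 2, against 3 with a 0 kb window, 3 at a score of at least 100, 1 with a 1 kb window and 0 with lists cut to the 1266 peaks of the shortest, where no member kept a peak. Members in more WT libraries numbered 2, against 1 with a 0 kb window, 1 at a score of at least 100 and 0 with lists of equal length. After seeing the data, each replicate number was left out of both genotypes at once, which gave 0 to 2 members in more KI and 1 to 2 in more WT libraries. The lowest counts came without replicate 3, and with replicates 1 and 2 only, where 0 members were in more KI and 1 in more WT libraries. All of these counts include Id4, which was chosen for its detection. It is the 1 member in more WT libraries with replicates 1 and 2 only. Among the 7 other members, 0 were in more KI and 0 in more WT libraries there. At a score of at least 100 the difference in the share of libraries, KI minus WT, turned to 0.25 for Id4, which was -0.5 as deposited, and to -0.25 for Hes1, which was 0.25. Of the differences in covered length, KI minus WT, that of Hey1 turned to -15.2 bp per Mb covered in the library, and that of Id2 to -59 bp with a 1 kb window. Leaving out 1 library moved the difference over -212 to 229.75 bp for Id1, -176 to 531 bp for Id2 and -301 to 114 bp for Id3. The range was -109 to 1032 bp for Hes1, -59.7 to 972 bp for Hes5, -73.2 to 389 bp for Hes6 and -288 to 410.2 bp for Hey1. Each range crosses 0, but leaving out 1 library also gives the genotypes unequal shares of long and short lists. Stability of the sign therefore cannot be read from these ranges. The cause of these changes was not tested. Of 246 alternatives in all, 20 turned the sign of a value and 10 moved it otherwise by the rule used. For members other than Id4 that rule looked only at a turned sign and at the call. The remaining alternatives therefore also hold changes in size. The difference in covered length of Hes5, for example, was 10 bp without KI replicate 1, against 464 bp in the main setting. The lists give no read counts, so what depth limits is unknown, and a gene with no peak in a short list may still carry the mark.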
